A study of Mus musculus with 7 samples.

Results

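The genes described here are the 10 Jun, Fos and small Maf transcription factor genes, taken by gene symbol from the table of raw RNA counts: Jun, Junb, Jund, Fos, Fosb, Fosl1, Fosl2, Maff, Mafg and Mafk. All 10 were among the table's 23329 symbols. The libraries came from wild-type Beta-TC6 cells, an insulin-secreting line derived from a mouse beta-cell tumour, treated with IL1B (n = 3) or vehicle (n = 4). IL1B, interleukin-1 beta, is an inflammatory cytokine. Every culture, vehicle included, grew with 15% fetal bovine serum and received a pulse of 10 µM forskolin for 1 h to synchronise the cells, and forskolin raises cAMP. The labels give neither the dose and duration of IL1B nor the time from pulse to harvest. All samples belong to a single tumour line, and nothing states that the libraries are separate cultures; the spread behind each p-value may therefore be technical.

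Jun and Fos proteins pair through leucine zippers to form the dimeric activator AP-1, which binds the DNA element called TRE and, with some partners, the cAMP response element (CRE). Jun proteins can pair with each other, whereas Fos proteins need a Jun partner. Small Maf proteins also carry a leucine zipper but have no activation domain of their own, so they repress as homodimers and activate when paired with factors such as Nfe2l1 and Nfe2l2. Jun and Fos genes are textbook immediate early genes, and in beta cells cytokines activate the JNK kinase that phosphorylates Jun.

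Total counts ran from 6007723 to 6969745 in IL1B libraries and from 5335607 to 7513934 in vehicle libraries. Levels are CPM, each gene's counts scaled to 1000000 counts in tested genes after TMM normalisation, which corrects for composition. The 10 beta-cell markers, of which 2 fell and none rose, summed to between 39370 and 40581 CPM in IL1B libraries and between 35680 and 41428 CPM in vehicle libraries. Leukocyte markers summed to 3.71 to 5.10 CPM with IL1B and 3.69 to 4.85 CPM with vehicle, stromal and endothelial markers to 6.12 to 9.64 and 6.42 to 10.0 CPM, and the pan-leukocyte marker Ptprc had 9 counts over the IL1B libraries and 8 over the vehicle libraries. Of the leukocyte list Tyrobp was at 0 in all libraries, while Cd68 had 36 IL1B and 44 vehicle counts and Cd3e 26 and 24. Exocrine and duct markers summed to 20.1 to 22.6 CPM with IL1B and 19.3 to 24.1 CPM with vehicle. Prss2, Cpa1 and Amy2a5 were at 0, while Spp1 had 280 IL1B and 398 vehicle counts and Krt7 100 and 138. Markers of other islet endocrine cells summed to 535 to 590 CPM with IL1B and 578 to 638 CPM with vehicle, with 1 of them called lower. What part any of these lists had in the results was not tested. The second vehicle library stood apart: gene by gene, its departure from the mean of its group followed transcript length with a Spearman rho of -0.54 (11286 genes, which are not independent replicates). The rho was 0.22 to 0.30 in the other vehicle libraries and -0.02 to 0.02 in the IL1B libraries. A gene's departures cancel out within a group, so the values of the other vehicle libraries are not independent of that of the second.

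The 250 bases before the annotated starts of Jun, Junb, Maff and Fos are shown because Maff, Junb and Jun rose most of the members while Fos did not pass the test. They are RefSeq sequences of GRCm38.p6, the assembly behind mm10, written 5′ to 3′ on the gene's strand, with capitals marking matches to the motifs listed after them. Maff has 3 RefSeq starts, of which starts 2 and 3 are shown.
Jun, chr4:95052223-95052472, minus strand: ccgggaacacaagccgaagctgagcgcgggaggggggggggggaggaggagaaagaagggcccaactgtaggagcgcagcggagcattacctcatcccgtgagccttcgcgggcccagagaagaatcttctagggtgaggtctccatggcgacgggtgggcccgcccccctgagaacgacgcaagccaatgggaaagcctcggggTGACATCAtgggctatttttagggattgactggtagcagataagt
Junb, chr8:84978749-84978998, minus strand: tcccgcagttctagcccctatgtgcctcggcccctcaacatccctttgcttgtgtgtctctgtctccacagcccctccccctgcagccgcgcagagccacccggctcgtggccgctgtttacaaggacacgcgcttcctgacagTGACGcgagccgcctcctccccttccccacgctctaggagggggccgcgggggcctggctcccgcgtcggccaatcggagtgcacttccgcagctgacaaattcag
Maff start 2, chr15:79347270-79347519, plus strand: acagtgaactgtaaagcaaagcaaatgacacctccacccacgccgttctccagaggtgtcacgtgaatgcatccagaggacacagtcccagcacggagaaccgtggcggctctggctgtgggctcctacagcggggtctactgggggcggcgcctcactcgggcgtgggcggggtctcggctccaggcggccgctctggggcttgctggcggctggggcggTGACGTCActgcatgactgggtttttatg
Maff start 3, chr15:79348152-79348401, plus strand: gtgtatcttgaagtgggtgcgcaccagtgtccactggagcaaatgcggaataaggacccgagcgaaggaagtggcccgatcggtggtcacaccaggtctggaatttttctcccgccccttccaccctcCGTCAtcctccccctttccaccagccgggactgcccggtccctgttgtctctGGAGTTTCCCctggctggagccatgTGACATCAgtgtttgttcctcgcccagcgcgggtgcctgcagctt
Fos, chr12:85473640-85473889, plus strand: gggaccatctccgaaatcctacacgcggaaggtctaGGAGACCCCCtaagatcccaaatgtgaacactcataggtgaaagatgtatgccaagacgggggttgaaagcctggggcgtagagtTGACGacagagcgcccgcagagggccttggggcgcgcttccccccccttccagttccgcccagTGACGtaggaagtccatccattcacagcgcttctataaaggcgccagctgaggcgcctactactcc

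Promoter windows of 300 bases (250 before and 50 after a RefSeq start) were found for 9 members, in 11 windows; Fosl1 was not matched. Both strands were searched for TGANTCA (the TRE), TGACNTCA (the CRE type, which includes the full CRE), TGACG (the CRE core, which overlaps any full CRE), the NF-kB consensus, the CArG box bound by serum response factor, and TGCTGA (an arm of the Maf element T-MARE). The CRE type matched in Jun, from base -45 to -38, and in both printed Maff windows, from -29 to -22 at start 2 and from -45 to -38 at start 3. It was held by 8.83% of all 32851 RefSeq promoter windows of this length. The CRE core matched in Fos, Fosb, Junb, Maff, Mafg and Mafk, in 7 of 11 windows, and in 20.8% of all windows. The NF-kB consensus matched in Fos, Fosb, Fosl2 and at Maff start 3, and in 8.46% of all windows. No member window held the TRE (7.81% of all windows) or the CArG box (1.63%), and the T-MARE arm matched in Mafk alone (19.5%). The RefSeq start of Jund lies 1210 bases before the GENCODE start, and neither its window nor that of Maff start 1 held a match. Matches are descriptions of sequence in these windows, not bound sites. The motifs were chosen after these sequences had been seen, and several of the windows belong to Maff. The member counts beside the shares of all windows are therefore no test of an excess. Sequence more than 250 bases before a start was not searched, so an absent match holds for the window only.

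**Figure D1:**
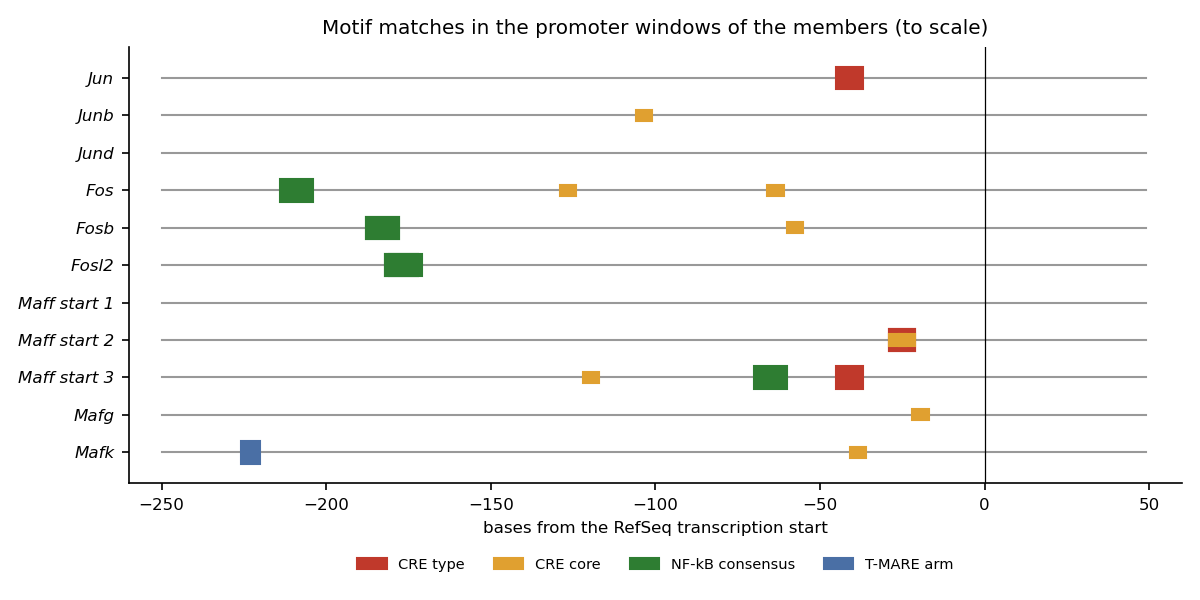
Motif matches in the 11 RefSeq promoter windows of 9 members, drawn to scale along the distance in bases from the transcription start (vertical line), with 1 row per start and colours for the CRE type, CRE core, NF-kB consensus and T-MARE arm. The CRE type lies within the last 45 bases before the start of Jun and of Maff starts 2 and 3; the windows of Jund and of Maff start 1 are empty.

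With IL1B, 7 of the 10 members rose and none fell by edgeR; DESeq2 and limma-voom also called 0 lower, as did edgeR without adjusting p. Maff and Junb rose more than 6-fold, Jun, Jund and Fosb between 2.64-fold and 3.21-fold, and Mafk and Mafg 1.56-fold and 1.42-fold. Fos and Fosl2 did not pass the threshold, an adjusted p of 0.05 in edgeR's quasi-likelihood test with Benjamini-Hochberg adjustment over all 12480 genes tested, and Fosl1 was too low to be tested. Over all tested genes 7.76% were called higher and 3.25% lower, and the groups did not overlap in CPM in 21.0%, against 7 of the 9 tested members higher and the same 7 without overlap. The median log2 fold change was 1.40 over the 9 tested members and -0.01 over all tested genes. The members were chosen with earlier results of these data known, so these comparisons with all genes are descriptions and no independent test. With total-count scaling 844 genes were called higher and 556 lower, against 968 and 406 with TMM, and the members' calls did not change. All 9 tested members exceeded the filter in the vehicle libraries as well as in the IL1B libraries, so each could have been called in either direction. In RNA from whole cultures, a change in the number of expressing cells and a change in RNA per cell cannot be told apart.

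**Figure D2:**
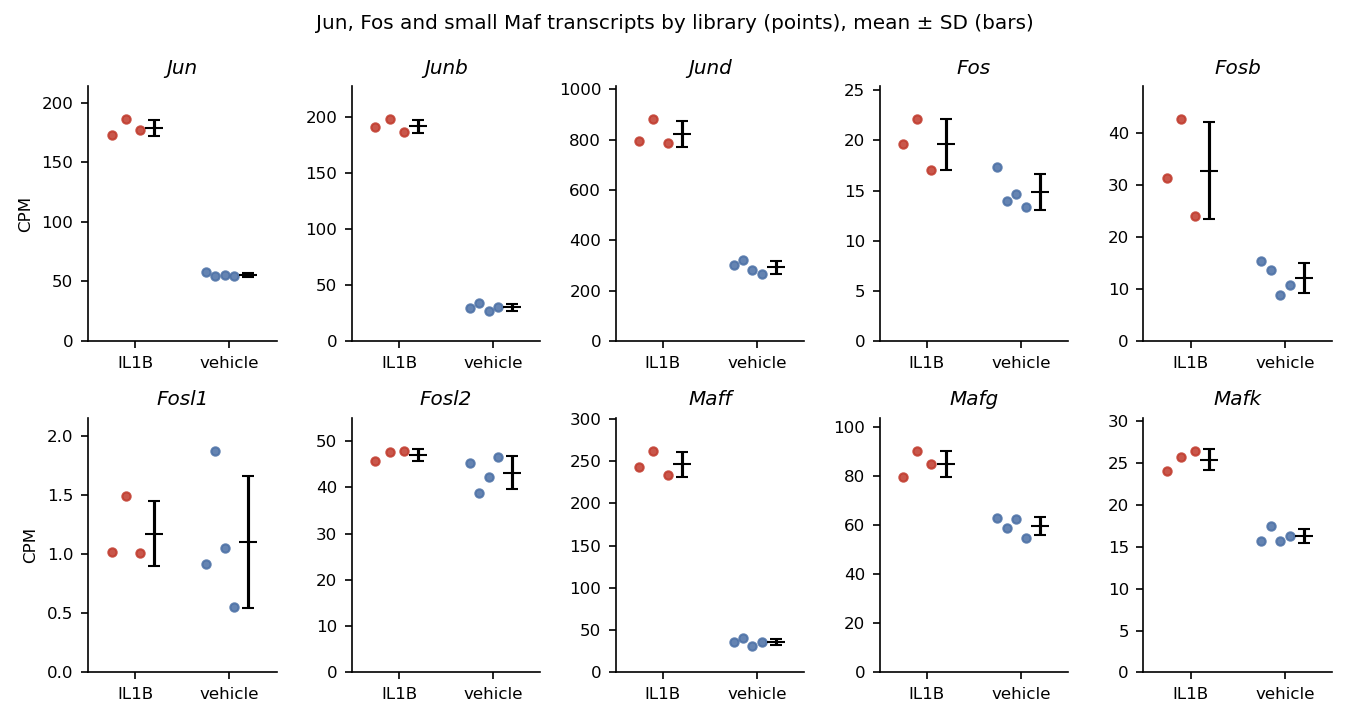
Levels of the 10 members in CPM (vertical axes, each from 0), with 1 point per library, IL1B libraries in red and vehicle libraries in blue, and the mean ± SD as a black bar. The groups are separate for Jun, Junb, Jund, Fosb, Maff, Mafg and Mafk and overlap for Fos, Fosl1 and Fosl2.

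All 3 Jun genes, which encode the AP-1 subunits able to pair with any Fos protein, rose. Junb, on the minus strand of chromosome 8 (84974484 to 84978718), with 1 exon in its longest coding transcript, encodes a Jun protein with weaker activity than Jun in many settings. Its levels in IL1B libraries 1 to 3 were 191, 198 and 187 CPM, against 29.5, 34.1, 26.6 and 30.3 CPM in vehicle libraries 1 to 4. The IL1B libraries lay within a narrow band far above every vehicle library. The rise was 6.36-fold, with a log2 fold change of 2.67 (SE 0.08; adjusted p = 1.3e-15 by edgeR), place 51 among the 968 increases ranked by size.

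Jun (chromosome 4, 95049034 to 95052222, minus strand, also a single exon) encodes c-Jun, the subunit that JNK phosphorylates. It had 173, 186 and 177 CPM in the IL1B libraries, against 58.1, 54.5, 55.0 and 54.8 CPM in the vehicle libraries. The groups were tight, with an SD of 6.81 CPM in IL1B libraries and 1.66 CPM in vehicle libraries. The rise was 3.21-fold, or 1.68 on the log2 scale (SE 0.06; adjusted p = 1.4e-13 by edgeR). Jund (chromosome 8, 70698949 to 70700616, plus strand, 1 exon), usually described as the constitutive Jun gene, stood at 794, 881 and 788 CPM with IL1B, against 301, 322, 282 and 264 CPM with vehicle. It was the most abundant member in every library, also per length, and rose 2.80-fold, a log2 fold change of 1.49 (SE 0.07; adjusted p = 2.0e-12 by edgeR).

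No source used here states whether counting used strand, and without strand some reads of the Jun genes cannot be assigned. The span of the Junb gene overlaps over 351 bases that of Prdx2, a peroxidase gene on the opposite strand. Prdx2 had 6751 counts over the IL1B libraries and 8611 over the vehicle libraries. The longest coding transcript of Junb shared 0% with any other gene's transcript at 95% identity. The Jun gene overlaps the antisense gene Junos over 689 bases, and 7.28% of its longest coding transcript is shared with Junos. Of the Jund transcript, 32.6% is shared with its antisense neighbour Gm11175. Neither antisense gene is a row of the table. The part of such reads in the differences was not tested.

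Of the Fos genes, Fosb alone passed the threshold. Fosb (chromosome 7, 19302696 to 19310051, minus strand), an immediate early gene known for a long-lived truncated splice form, had 31.5, 42.7 and 24.1 CPM in the IL1B libraries, against 15.4, 13.6, 8.81 and 10.8 CPM in the vehicle libraries. All IL1B libraries lay above all vehicle libraries, but they spread widely, with the second IL1B library highest. The rise was 2.64-fold, or 1.40 on the log2 scale (SE 0.18; adjusted p = 9.0e-06 by edgeR), and its log2 fold change was 1.17 without the second IL1B library. Gene counts do not separate the splice forms.

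Fos (chromosome 12, 85473890 to 85477273, plus strand), the founding member and a classical target of cAMP and serum, had 19.7, 22.1 and 17.0 CPM with IL1B, against 17.4, 13.9, 14.6 and 13.4 CPM with vehicle. The groups overlapped, since vehicle library 1 lay above IL1B library 3. Its log2 fold change was 0.39 (SE 0.13, 95% interval 0.13 to 0.65; edgeR adjusted p = 0.0514), just short of the threshold, and its adjusted p was 0.0251 to 0.249 over 15 alternatives. It passed without IL1B library 3 (edgeR adjusted p = 0.0331) and without vehicle library 1 (0.0251). Fosl2 (chromosome 5, 32135801 to 32157842, plus strand), which encodes Fra-2, a Fos protein without the strong activation domain of Fos, had 45.6, 47.7 and 47.9 CPM with IL1B, against 45.2, 38.7, 42.3 and 46.6 CPM with vehicle. The groups overlapped, and the log2 fold change was 0.12 (SE 0.08, 95% interval -0.05 to 0.30; edgeR adjusted p = 0.418). Fosl1 (chromosome 19, 5447547 to 5455946, plus strand), which encodes Fra-1, had 7, 9 and 6 counts in the IL1B libraries and 7, 12, 6 and 3 counts in the vehicle libraries. Of its transcript, 62.5% lies over Ccdc85b on the opposite strand, and without strand reads of the pair cannot be told apart.

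All 3 small Maf genes rose, by unequal amounts. Maff (chromosome 15, 79346621 to 79359076, plus strand) had 242, 262 and 234 CPM in the IL1B libraries, against 35.8, 41.2, 31.6 and 35.5 CPM in the vehicle libraries. The lowest IL1B library was more than 5 times the highest vehicle library. The rise was 6.82-fold, or 2.77 on the log2 scale (SE 0.08; adjusted p = 1.2e-15 by edgeR), the largest of the members and place 48 among all increases.

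Mafk and Mafg changed less but without overlap between groups. Mafk (chromosome 5, 139791513 to 139802653, plus strand) had 24.0, 25.8 and 26.5 CPM with IL1B, against 15.7, 17.5, 15.7 and 16.3 CPM with vehicle, and rose 1.56-fold, or 0.64 on the log2 scale (SE 0.10; adjusted p = 1.5e-04 by edgeR). Mafg (chromosome 11, 120625117 to 120633600, minus strand) had 79.7, 90.4 and 84.9 CPM with IL1B, against 62.8, 58.9, 62.4 and 54.8 CPM with vehicle, and rose 1.42-fold, or 0.51 on the log2 scale (SE 0.07; adjusted p = 6.2e-05 by edgeR). The Mafg gene overlaps Sirt7 on the same strand over 124 bases, and Mafk overlaps Tmem184a, which had 4 IL1B counts and 11 vehicle counts, on the opposite strand.

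**Figure D3:**
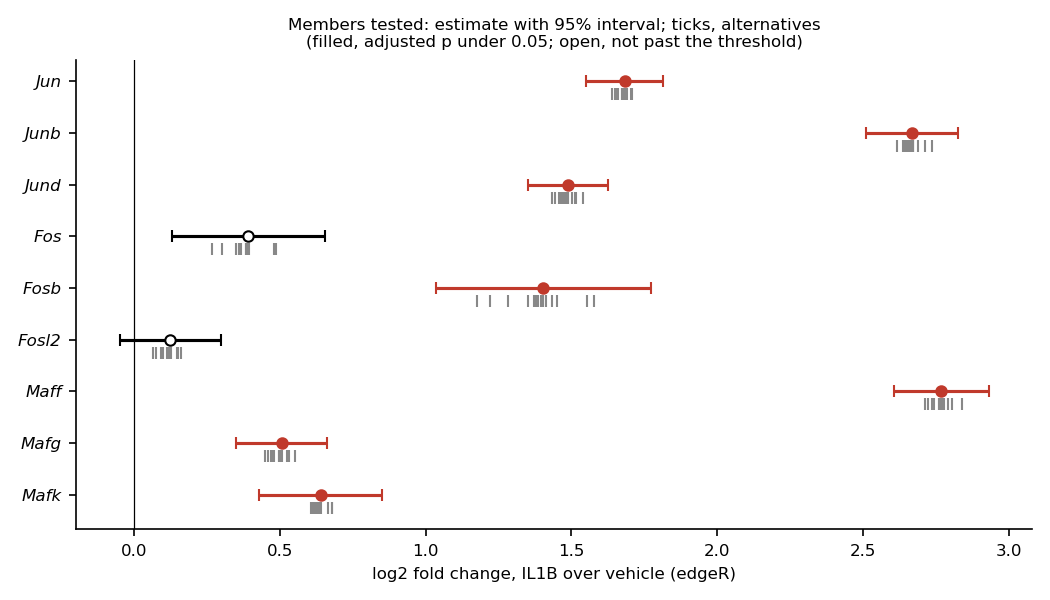
Log2 fold change of IL1B over vehicle for the 9 tested members (points, with 95% intervals), filled where the edgeR adjusted p was under 0.05 and open for Fos and Fosl2, with small ticks for the values under the 15 alternatives. Maff and Junb stand apart at 2.77 and 2.67, Jun, Jund and Fosb lie between 1.40 and 1.68, and Mafg and Mafk are at 0.51 and 0.64.

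Of the 10 members, 5 were highest among vehicle libraries in the one that stood apart, namely Junb, Jund, Maff, Fosl1 and Mafk. Their longest coding transcripts measure 1809, 1668, 1958, 1864 and 3097 bases. Fosl2, with 6537 bases the longest, was lowest there, but the members did not simply follow length: relative to the other vehicle libraries, Fos (2108 bases) stood at -0.12, Fosb (3782 bases) at 0.22 and Mafg (4923 bases) at -0.03 on the log2 scale. Without that library the log2 fold changes were 2.74 for Junb, 1.54 for Jund and 2.84 for Maff, each slightly larger. Among IL1B libraries 8 of the 10 members were highest in the second. The share of all tested genes highest in these libraries was not counted, so neither count can be called particular to the members. Without the second library of both groups the log2 fold changes were 2.71 for Junb, 1.64 for Jun, 1.48 for Jund, 2.79 for Maff and 1.22 for Fosb, and the same 7 members were called higher.

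Per kilobase of the longest coding transcript, which allows levels to be compared between genes, Jund dominated the Jun genes in both groups. Its level was 492 ± 31.1 CPM per kb with IL1B and 175 ± 15.0 CPM per kb with vehicle (SD, n = 3 and 4). Jund made up 75.2% ± 0.58 of the Jun family's summed level per kb in IL1B libraries and 83.7% ± 0.88 in vehicle libraries (SD). The share of Junb was 16.2% ± 0.45 with IL1B and 7.96% ± 0.62 with vehicle, and that of Jun 8.57% ± 0.20 and 8.36% ± 0.63. Junb and Jun were thus close to each other in vehicle libraries, at 16.7 ± 1.71 and 17.4 ± 0.52 CPM per kb. With IL1B they stood at 106 ± 3.23 and 56.1 ± 2.14 CPM per kb.

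Among small Mafs the share of Maff per kb was 83.1% ± 0.80 with IL1B and 51.3% ± 2.90 with vehicle, while that of Mafg was 11.4% ± 0.46 and 34.0% ± 2.95 and that of Mafk 5.44% ± 0.39 and 14.7% ± 0.54. The summed small Maf level was 151 ± 8.23 CPM per kb with IL1B and 35.8 ± 2.13 CPM per kb with vehicle. Fos genes were far below the Jun genes: they summed to 25.8 ± 3.81 CPM per kb with IL1B and 17.4 ± 1.55 CPM per kb with vehicle, against 654 ± 36.2 and 209 ± 16.2 CPM per kb for the Jun genes. Within the Fos family the share of Fosb ran from 28.6% to 37.8% with IL1B and from 14.3% to 21.0% with vehicle. The shares are descriptions, depend on the transcript chosen for each gene, and were not tested.

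**Figure D4:**
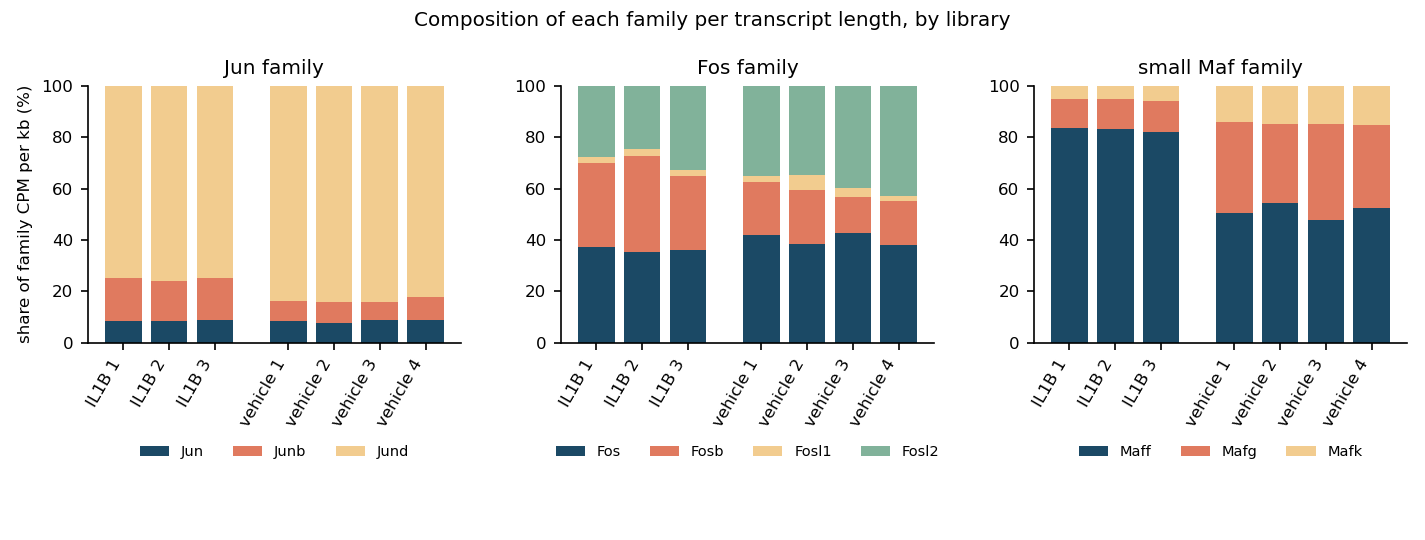
Share of each member in its family's summed CPM per kb (vertical axis, percent) in each library, IL1B libraries on the left of each panel and vehicle libraries on the right. Maff fills 82.2% to 83.8% of the small Maf bars with IL1B and 47.6% to 54.4% with vehicle, and Junb 15.7% to 16.6% and 7.33% to 8.69% of the Jun bars.

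Over the 7 libraries Junb and Maff had nearly the same profile: centred on their vehicle means, their log2 CPM differed by a root mean square of 0.07, less than either differed from any gene outside the members. The nearest gene outside the members was the same for both, Irf1, an interferon regulatory factor, at 0.11. It had 162 ± 10.5 CPM with IL1B and 23.5 ± 1.38 CPM with vehicle (SD). Jun and Jund differed by 0.15 and Mafg and Mafk by 0.13. The nearest genes outside the members were Cgn for Jun (0.07), D4Bwg0951e for Jund (0.08), Amotl2 for Fosb (0.17), Tmem51 for Mafg (0.05) and Tyk2, a cytokine receptor kinase, for Mafk (0.05). These distances are descriptions and, with 2 groups, largely reflect the size of the difference between them.

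The counts in this and the following lists stand beside 7.76% of all tested genes called higher and 3.25% called lower by edgeR. Of 9 other bZIP factor genes whose proteins can join AP-1 dimers, 7 were tested. Of these 4 rose and none fell, with a list median log2 fold change of 0.57. Atf3, a stress-induced repressor, rose 3.73-fold, to 31.1 ± 0.91 CPM with IL1B, against 8.31 ± 0.52 CPM with vehicle (SD; edgeR adjusted p = 1.2e-10). Ddit3, which encodes the stress factor CHOP, rose 1.73-fold, Atf4 of the integrated stress response 1.48-fold, and Atf2, a partner of Jun at CRE-type sites, 1.25-fold (edgeR adjusted p = 0.0042). Batf3 passed the filter through the IL1B libraries alone and so could not have been called lower; over the 6 other tested genes the median was 0.50. Jdp2 and Batf3 had log2 fold changes of 0.43 and 0.80 and adjusted p of 0.178 and 0.180 by edgeR. Batf had no count in any library, and 3 counts equal 0.395 to 0.557 CPM.

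Large Maf genes, whose proteins have the activation domain that small Mafs lack, fell in both cases tested, with a median of -0.49. Mafa, an activator of the insulin genes, had 152 ± 1.05 CPM with IL1B and 211 ± 8.84 CPM with vehicle (SD; log2 fold change -0.47, SE 0.06, edgeR adjusted p = 7.0e-06). Maf had 80.8 ± 6.34 CPM with IL1B and 115 ± 6.34 CPM with vehicle (SD; log2 fold change -0.51, SE 0.07, edgeR adjusted p = 3.5e-05). The list of small Maf partners also counts Keap1, which is no such partner. Of its 5 tested genes 1 rose: Nfe2l1, which encodes an activator of proteasome genes, 1.31-fold (edgeR adjusted p = 8.5e-05). Nfe2l2, which encodes the antioxidant regulator Nrf2, had 30.1 ± 4.02 CPM with IL1B and 33.0 ± 1.63 CPM with vehicle (SD; edgeR adjusted p = 0.468), and Bach1, a repressor that pairs with small Mafs, had a log2 fold change of 0.25 (edgeR adjusted p = 0.0852).

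Kinases upstream of AP-1 changed in a few places. Of 20 tested genes, which include the kinase adaptors Tab1 and Tab2, 4 rose and none fell, and the median log2 fold change was 0.06. Map3k8, the kinase TPL2 that feeds ERK signalling, rose 8.77-fold, to 18.7 ± 1.12 CPM with IL1B, against 2.15 ± 0.51 CPM with vehicle (SD; edgeR adjusted p = 9.0e-11). The p38 activators Map2k6 and Map2k3 rose 1.93-fold and 1.59-fold. The p38 gene Mapk14 did not pass the threshold, with a log2 fold change of -0.18 (edgeR adjusted p = 0.0898). Map3k11 rose 1.22-fold (edgeR adjusted p = 0.0193; 0.00618 to 0.120 over 15 alternatives), a call lost without the first IL1B library (adjusted p = 0.0551), the second IL1B library (0.120) or the vehicle library numbered 3 (0.0783). The JNK genes Mapk8, Mapk9 and Mapk10 had log2 fold changes of -0.13, -0.12 and -0.06, with edgeR adjusted p from 0.265 to 0.739. None of 12 genes for factors that act on the Fos and Jun promoters passed the threshold by edgeR, DESeq2 or limma-voom. Srf, Elk1 and Creb1 are among them. With 7.76% of all tested genes called higher and 3.25% lower by edgeR, 12 genes without a call do not stand apart from all genes. In this list 2 were higher and 0 lower at an unadjusted edgeR p under 0.05, and the median log2 fold change was 0.03. Across the other lists with no gene called lower, DESeq2 and limma-voom also called none. At an unadjusted edgeR p under 0.05 the kinase list, adaptors included, had 2 lower genes and the rest 0.

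Of 20 textbook AP-1 targets 12 stayed below the filter, among them Mmp3, with no count, and Mmp13, with 3 counts over the IL1B libraries and none over the vehicle libraries. Of the 8 tested, 3 rose and none fell, and the median log2 fold change was 0.38. Of the 3, 1 passed the filter through the IL1B libraries alone and so could not have been called lower; over the other 7 the median was 0.23. Plau, which encodes urokinase, rose 3.55-fold and the growth factor gene Tgfb1 1.81-fold (edgeR adjusted p = 3.9e-06 and 0.0011).

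Of 14 tested target genes of the antioxidant response element, the site bound by small Mafs with Nfe2l2, 7 rose and none fell, with a median log2 fold change of 0.18. Hmox1, which encodes the haem-degrading enzyme, rose 1.61-fold (edgeR adjusted p = 6.2e-08), the cystine transporter gene Slc7a11 1.49-fold, Pgd of the pentose phosphate pathway 1.36-fold, the malic enzyme gene Me1 1.33-fold and Txnrd1, a thioredoxin reductase gene, 1.17-fold. Txnrd1 lost its call without IL1B library 3 (edgeR adjusted p = 0.0504; 4.4e-05 to 0.0504 over 15 alternatives). Gclc and Srxn1 of the same list were also called higher, with log2 fold changes of 0.30 and 0.20 (edgeR adjusted p = 0.00993 and 0.0292). Nqo1 and Gclm did not pass the threshold, with log2 fold changes of 0.15 and -0.07 (edgeR adjusted p = 0.772 and 0.593). Genes of this list used as readouts of Nfe2l2 activity were thus not uniform.

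**Figure D5:**
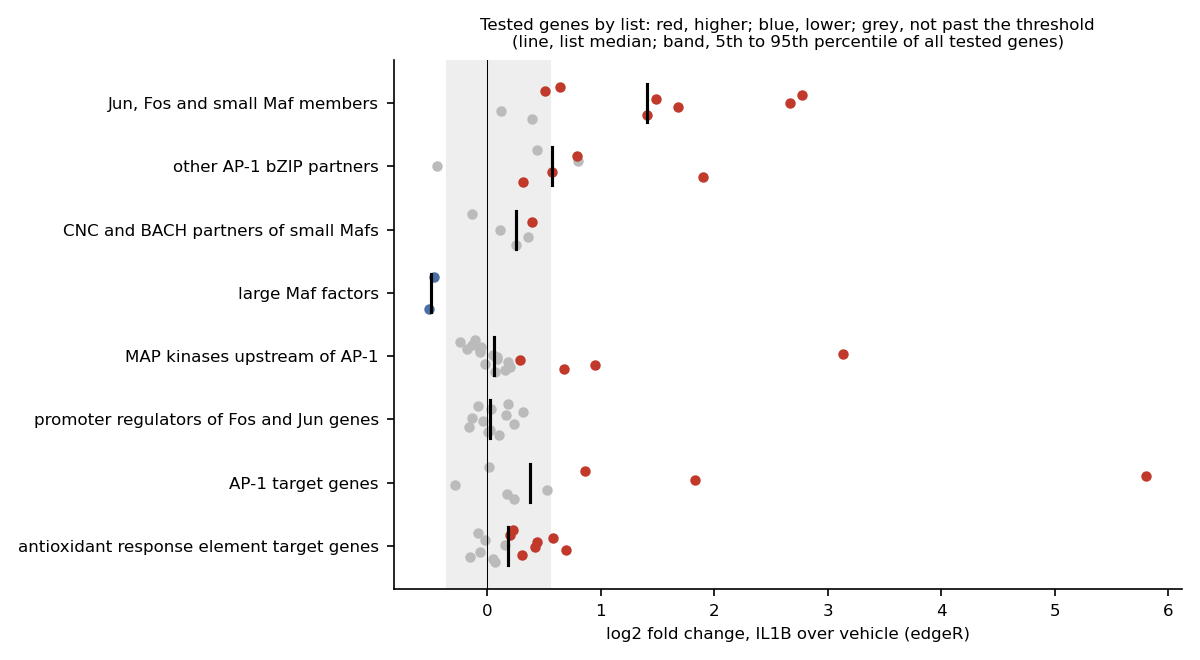
Log2 fold change of IL1B over vehicle for each tested gene (points) in the members and 7 related lists, red where called higher, blue where called lower and grey where not past the threshold, with each list's median as a line and the grey band spanning the 5th to 95th percentile of all tested genes. The members' median lies at 1.40, the large Maf median at -0.49, and Map3k8 is the farthest of the kinases to the right, at 3.13.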

How the data were processed

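RNA was measured in 7 libraries of Beta-TC6 cells, 3 treated with IL1B and 4 with vehicle. The values are raw counts, deposited by the authors in a table with 1 row per gene symbol. The submitters' processing notes name the build mm10 and, for the study as a whole and with no roles, Bowtie2, STAR, RSEM, HOMER, DESeq2, R 4.1.0 and single-cell tools. They do not say which program made the counts, with which annotation or strand setting. The table numbers the IL1B columns 1 to 3 and the titles 1, 3 and 4, so those columns were assigned to the group only and carry the table's numbers.

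The comparison was fitted with edgeR 4.0.16 under R 4.3.3: filterByExpr, TMM normalisation, and the quasi-likelihood test for IL1B over vehicle in all 7 libraries, with p-values adjusted by Benjamini-Hochberg over every gene tested and called at 0.05. Each SE was derived from the log2 fold change and its F statistic. The fit was tested on simulated data. Alternatives used DESeq2 1.42.0, limma-voom (limma 3.58.1), other scalings and filters, and fewer libraries. The members and gene lists were chosen with earlier results of these data known, and the motifs after the promoter sequences had been seen. All members were named, with up to 5 called genes per related list (smallest adjusted p) and, for each called member, the nearest gene outside the members in log2 CPM (prior count 2). Genes named beyond this rule were chosen after their values were seen. Of the cell type markers they were Ptprc, Tyrobp, Cd68, Cd3e, Prss2, Cpa1, Amy2a5, Spp1 and Krt7. Of the related lists they were Jdp2, Batf, Batf3, Nfe2l2, Bach1, Keap1, Mapk8, Mapk9, Mapk10, Mapk14, Tab1 and Tab2. Also among them were Srf, Elk1, Creb1, Mmp3, Mmp13, Nqo1, Gclm, Gclc, Srxn1 and the overlapping genes. Some genes of the related lists are counted but not reported here by name. Gene positions and lengths are from GENCODE on GRCm38. Stretches shared between transcripts at 95% identity were found with blastn 2.17.0.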

Additional observations from a re-analysis of the deposited data

Results flagged for a closer look

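Among the vehicle libraries, Jun in the first library, at 58.05 CPM, lay far from the other 3, which held 54.5 to 55.0 CPM, by Dixon's test. It was the only 1 of the 10 members whose vehicle values held such a library, where chance gives about 1 in 20, or 0.5 of 10. Without the first vehicle library Jun was still called higher, and all IL1B values of Jun lay above it.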

How the results depend on the processing

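The 7 members called higher were called higher under all 15 alternatives: 3 other scalings, looser or absent filters, DESeq2, limma-voom, and fits without each library in turn or without the second library of both groups. Fos joined them in the fit of all genes with a count (edgeR adjusted p = 0.0389; range over alternatives 0.0251 to 0.249) and without the first vehicle library (0.0251) or the third IL1B library (0.0331), and no member was called lower. The 3 alternatives that kept Fosl1 gave it a log2 fold change of 0.06 to 0.07 with an SE of 0.45 to 0.62 and adjusted p of 0.959 to 0.983. Over all genes, the count called lower was 260 with DESeq2 and 676 without the second library of both groups, and ran from 252 to 589 when 1 library was left out, against 406. Genes of the related lists called higher ran from 17 to 20 over the alternatives, against 19, and those called lower from 2 to 3, against 2. The other scalings put the median of all genes at -0.01 to -0.04. Among the called members, the widest range when 1 library was left out was that of Fosb, from 1.17 to 1.58 on the log2 scale. The cause of these shifts was not tested. No paired analysis was possible because the table's IL1B columns do not carry the replicate numbers of the titles, so the replicate block was not run. At these depths Fosl1, with 22 IL1B and 28 vehicle counts, could not be assessed.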
